A study of Mus musculus with 16 samples.

Results

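The voltage-gated sodium, voltage-gated calcium and HCN channel genes were followed in the mPFC of mice after Kdm7a knockdown and morphine withdrawal. They were taken by name, as the known genes with an Scn, Cacna, Cacnb, Cacng or Hcn symbol. The rule itself uses no measured value, but the genes were chosen with earlier results of these data known. The rule gave 44 of the 26625 genes in the table, and 41 of these are described here: 9 sodium channel alpha genes, 3 sodium channel beta genes, 4 Cav1, 3 Cav2 and 3 Cav3 genes, 4 alpha2delta genes, 4 calcium channel beta genes, 8 calcium channel gamma genes and 3 HCN genes. Of the 41, 34 had enough reads to be tested. All mice were male C57BL/6 animals of 8 to 10 weeks that carried an AAV in the mPFC (pAAV-U6-shRNA-CMV-EGFP-WPRE), injected before conditioning. The hairpin targeted Kdm7a in the Kdm7a-shRNA mice and was a negative control in the Ctrl mice, and neither promoter of the vector is restricted to 1 cell type. Over 10 days, each animal was conditioned with morphine at 10 mg/kg on alternating days or with saline, and the tissue was collected on day 17, which was day 7 of withdrawal. The 16 mice formed the groups Ctrl + Saline (3 mice) and Ctrl + Morphine (4 mice) with the control virus, and Kdm7a-shRNA + Saline (5 mice) and Kdm7a-shRNA + Morphine (4 mice) with the hairpin, with 1 Nanopore cDNA library per mouse.

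Voltage-gated channels convert changes of membrane potential into ion flow. Sodium channel alpha subunits form the pore that carries the upstroke of the action potential, and the beta subunits are single-pass membrane proteins that tune its gating, its surface level and cell adhesion. Calcium channels are built on a pore-forming alpha1 subunit of the Cav1 (L-type), Cav2 (P/Q-, N- and R-type) or Cav3 (T-type) class. For Cav1 and Cav2, the alpha2delta and beta subunits bring the pore to the membrane. HCN channels open on hyperpolarization, carry a mixed cation current and set resting excitability and rhythmicity in cortical and other neurons. Most Cacng genes of brain encode TARPs, which traffic AMPA receptors and are not obligatory parts of neuronal calcium channels.

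Libraries held 6596991 to 12418112 counted reads. Values below are normalized CPM, the deposited counts relative to the TMM-corrected library size (the unit CPM), in which 1 full-length cDNA read counts once whatever its length. Kdm7a, which encodes the histone demethylase targeted by the hairpin, was at 9.42 ± 0.353 (SD, n = 3) in Ctrl + Saline, 7.72 ± 1.13 (SD, n = 4) in Ctrl + Morphine, 5.55 ± 0.571 (SD, n = 5) in Kdm7a-shRNA + Saline and 4.94 ± 1.53 (SD, n = 4) in Kdm7a-shRNA + Morphine. The change with knockdown was -0.76 under saline on the log2 scale (SE, the standard error, 0.204, edgeR adjusted p = 0.0153) and -0.67 under morphine (adjusted p = 0.0506). Neuronal identity of the tissue was checked with Slc17a7, the vesicular glutamate transporter of cortical excitatory neurons, whose mean was 313 to 468 in the 4 groups. Summed markers of striatal projection neurons, the neighbouring tissue, were at 11.1 to 14.4 in Ctrl + Saline and 11.1 to 19.0 in Ctrl + Morphine. They were at 10.5 to 25.9 in Kdm7a-shRNA + Saline and 8.25 to 19.4 in Kdm7a-shRNA + Morphine. These are bulk samples, so fewer cells of a type and less RNA per cell cannot be told apart.

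Kdm7a knockdown was accompanied by changes in both directions among the channel genes. The sodium channel beta gene Scn4b and the HCN gene Hcn2 rose under saline, and Scn3b, Cacna1c, Cacna1e, Cacna1i and Cacna2d1 fell. Under morphine Cacna1b, Cacna1c and Cacna1h fell. A gene was called when its adjusted p-value in edgeR's quasi-likelihood test over all 18826 tested genes was under 0.05 and its fold change at least 1.5 in either direction. Under saline 7 of the 34 tested channel genes (20.6%) were called, against 16.7% of all tested genes. The 2 higher channel genes compare with 7.43% of all tested genes and 9.00% of known genes called higher. For the 5 lower ones, the shares were 9.31% of all tested genes and 2.98% of known genes, as 422 of the 1753 lower genes were known ones and most of the others unannotated loci of the authors' own assembly. Under morphine 3 of 34 (8.82%) were called, 0 higher and 3 lower, against 7.69% of all tested genes, 2.86% higher and 4.83% lower, and 3.37% and 1.27% of known genes. The knockdown effect averaged over saline and morphine was called in 6 of 34 (17.6%): Scn4b and Hcn2 rose, and Scn3b, Cacna1c, Cacna1h and Cacna2d2 fell. The background of that comparison was 17.6% of all tested genes, 7.68% higher and 9.93% lower, and 9.17% higher and 2.12% lower among known genes. The median log2 fold change of the tested channel genes was -0.05 under saline, -0.12 under morphine and -0.11 averaged, and the medians of the known genes were 0.10, 0.04 and 0.07. With both directions counted, the share of channel genes called was thus near that of all tested genes, which include the unannotated loci. Every channel gene is a known gene, and known genes were called higher and lower at the shares given above. In each knockdown comparison, both known-gene shares together stayed below the share of channel genes called (20.6%, 8.82% and 17.6%). Against known genes, the lower calls stood at a larger share of the channel genes and the higher calls did not. That comparison does not allow for the long transcripts of many channel genes (shares by length are given with the transcript lengths). No test of the group as a whole was made.

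**Figure D1:**
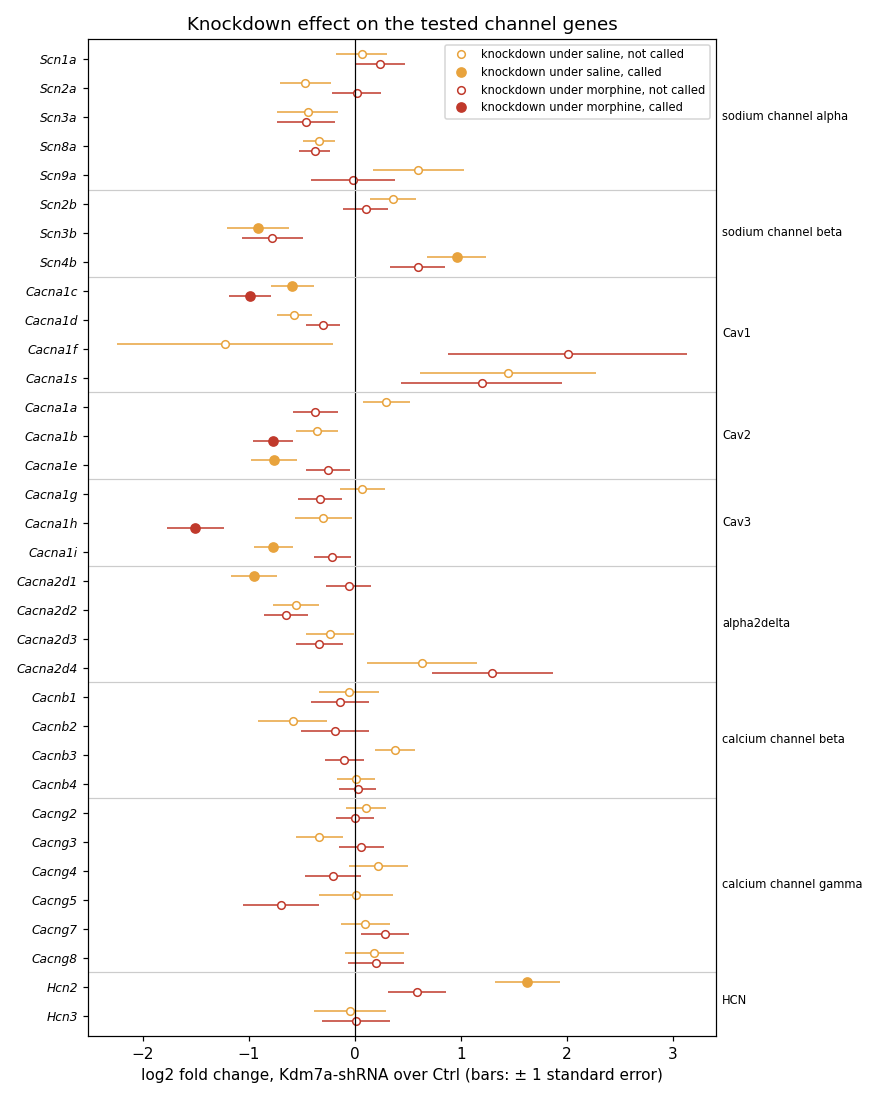
Log2 fold change of Kdm7a-shRNA over Ctrl (x axis) for each of the 34 tested channel genes (y axis, grouped by family), under saline in orange and under morphine in red, with bars of ± 1 standard error and filled points for called genes. Filled points to the right of 0 belong to Scn4b and Hcn2, and those to the left to Scn3b, Cacna1b, Cacna1c, Cacna1e, Cacna1h, Cacna1i and Cacna2d1.

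The promoters of 4 called genes are printed here to show what kind of start site stands behind the genes that moved in each direction. Of the genes called under saline that have a single promoter window in the RefSeq table of GRCm38.p6, these are the 2 with the largest change upwards and the 2 with the largest change downwards. Each window runs from 250 bases before to 50 after the start of transcription in RefSeq. For Scn4b, the GENCODE gene start (45138395) lies near the first base of the window, so most of the printed stretch is inside that annotated gene. Capitals mark GC boxes, GGGCGG on either strand (CCGCCC on the printed strand), the letters bound by Sp-family factors, and adjoining matches may share letters.
Hcn2, chr10:79716384-79716683, plus strand: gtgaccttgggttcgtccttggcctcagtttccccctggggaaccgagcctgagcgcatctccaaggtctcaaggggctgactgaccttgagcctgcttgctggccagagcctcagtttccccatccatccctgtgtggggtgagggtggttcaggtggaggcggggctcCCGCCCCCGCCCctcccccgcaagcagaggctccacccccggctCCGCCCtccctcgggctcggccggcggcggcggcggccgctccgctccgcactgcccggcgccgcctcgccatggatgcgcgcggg
Scn4b, chr9:45138374-45138673, plus strand: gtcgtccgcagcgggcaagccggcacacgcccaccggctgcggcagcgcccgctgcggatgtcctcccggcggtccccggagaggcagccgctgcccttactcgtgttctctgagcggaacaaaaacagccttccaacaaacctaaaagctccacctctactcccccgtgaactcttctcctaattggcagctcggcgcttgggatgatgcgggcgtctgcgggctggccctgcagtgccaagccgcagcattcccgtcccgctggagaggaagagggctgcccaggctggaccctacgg
Cacna2d1, chr5:15934441-15934740, plus strand: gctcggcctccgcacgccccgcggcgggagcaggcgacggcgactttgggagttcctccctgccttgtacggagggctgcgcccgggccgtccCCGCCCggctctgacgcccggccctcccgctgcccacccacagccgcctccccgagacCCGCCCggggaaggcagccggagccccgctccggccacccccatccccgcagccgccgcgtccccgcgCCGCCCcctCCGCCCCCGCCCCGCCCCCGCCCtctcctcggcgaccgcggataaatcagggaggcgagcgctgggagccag
Cacna1i, chr15:80286988-80287287, plus strand: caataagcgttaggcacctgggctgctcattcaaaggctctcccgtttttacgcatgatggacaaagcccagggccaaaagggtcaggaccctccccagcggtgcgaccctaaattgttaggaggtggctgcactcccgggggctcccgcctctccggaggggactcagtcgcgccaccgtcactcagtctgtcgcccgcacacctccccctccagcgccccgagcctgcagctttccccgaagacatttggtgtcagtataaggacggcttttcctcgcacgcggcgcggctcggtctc

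The windows were rich in G and C on both sides of the change. Hcn2 had 72.3% GC, 26 CpG and 3 GC boxes, and Scn4b had 66.3% GC, 26 CpG and 0 GC boxes. Among the genes that fell, Cacna2d1 had 80% GC, 42 CpG and 7 GC boxes, and Cacna1i had 62.7% GC, 23 CpG and 0 GC boxes. A GC box was therefore present and absent in genes of either direction. Over the 43 windows that the table holds for 32 of the 41 channel genes, 41.9% had a GC box, against 35.7% of all 32851 windows. The cAMP response element TGACGTCA was in 0 of the channel windows and in 1.79% of all windows, and TATAAA on either strand was in 4.65% and 13.6%. The median window of a channel gene had 59.7% GC and 11 CpG, and the median of all windows 52.7% and 7. These counts describe the letters of the windows and say nothing of which factor binds there.

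The sodium channel beta genes Scn3b and Scn4b gave changes in opposite directions. Scn3b (ENSMUSG00000049281, chr9:40269217-40291618, plus strand, GRCm38) encodes beta3, which associates with the pore without a covalent bond, and it fell. It was at 108, 137 and 131 in Ctrl + Saline and at 82.8, 46.9, 32.7, 108 and 61.9 in Kdm7a-shRNA + Saline. Here 1 knockdown mouse, replicate 4, reached the level of the lowest Ctrl mouse, and the other 4 were below it. Under morphine Ctrl mice were at 119.7, 162, 117 and 142.5, and Kdm7a-shRNA mice at 75.8, 87.8, 45.8 and 107.5, with no overlap. Its log2 fold change was -0.91 (SE 0.291, adjusted p = 0.0340) under saline, -0.78 (adjusted p = 0.0970, not called) under morphine and -0.84 (SE 0.205, adjusted p = 0.00539) averaged. The saline call was lost when Ctrl + Saline replicate 2 (-0.84, adjusted p = 0.115) or 3 (-0.90, adjusted p = 0.105) or Kdm7a-shRNA + Saline replicate 2 (-0.81, adjusted p = 0.0787), 3 (-0.74, adjusted p = 0.0628) or 5 (-0.89, adjusted p = 0.0649) was left out, and the averaged call held in each fit.

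Scn4b (ENSMUSG00000046480, chr9:45138395-45154152, plus strand) encodes beta4, a disulphide-linked subunit best known for supporting resurgent sodium current. It was at 11.5, 14.2 and 10.7 in Ctrl + Saline and at 18.5, 32.6, 23.7, 13.9 and 29.8 in Kdm7a-shRNA + Saline. The lowest knockdown mouse, again replicate 4, was within the Ctrl range and the others above it. Under morphine the Ctrl mice were at 17.97, 17.4, 21.9 and 14.6 and the Kdm7a-shRNA mice at 38.8, 27.7, 26.6 and 15.6, so that the ranges overlapped through replicate 4. Scn4b rose by a log2 fold change of 0.96 (SE 0.280, adjusted p = 0.0227) under saline and 0.78 (SE 0.191, adjusted p = 0.00571) averaged. Under morphine the estimate was 0.60 (adjusted p = 0.156). Without Ctrl + Saline replicate 1 (0.88, adjusted p = 0.0717) or 3 (0.86, adjusted p = 0.111), or without Kdm7a-shRNA + Saline replicate 2 (0.82, adjusted p = 0.0560) or 5 (0.87, adjusted p = 0.0507), the saline call was lost. The remaining beta gene, Scn2b, also disulphide-linked, was not called (0.36 and 0.10 on the log2 scale under saline and morphine).

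**Figure D2:**
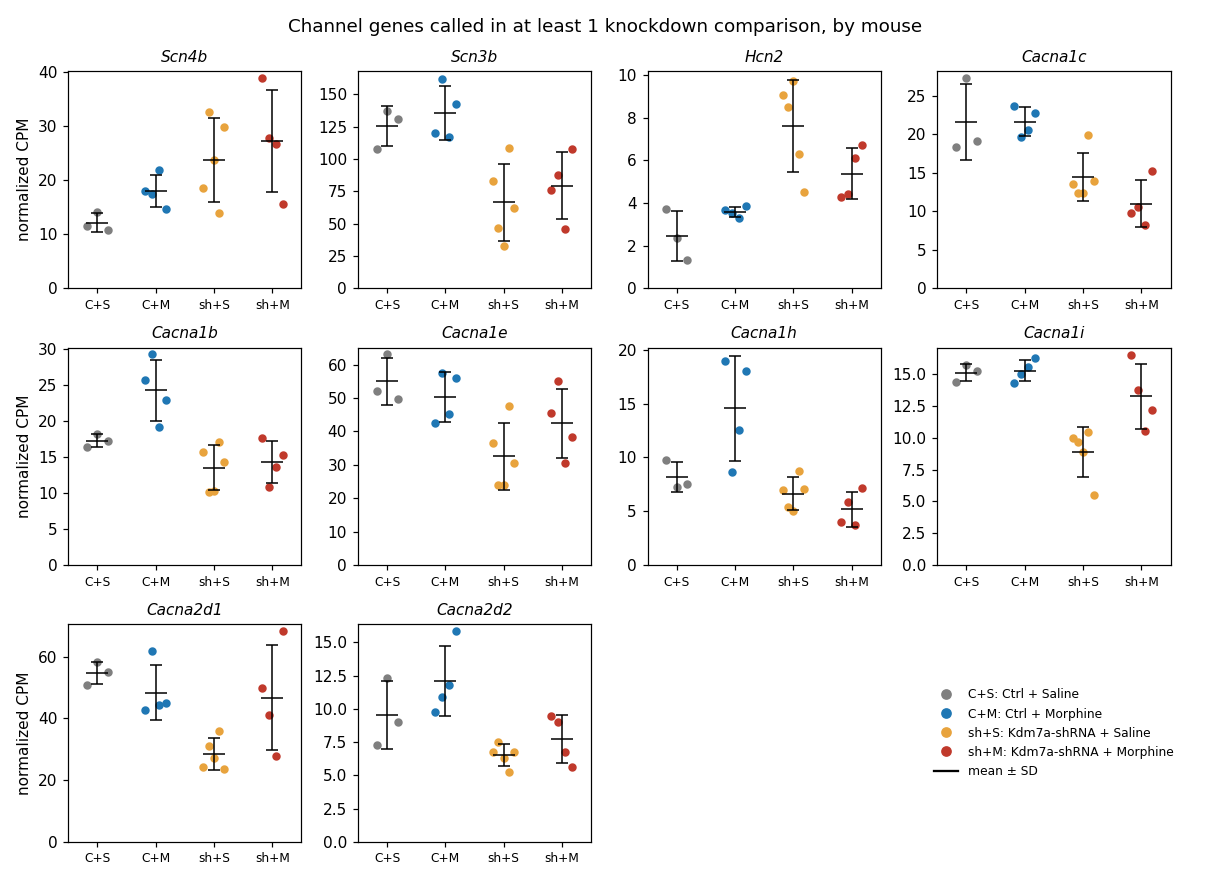
Normalized CPM (y axes, each starting at 0) of the 10 channel genes called in a knockdown comparison, with a point for each mouse and the mean ± SD of each of the 4 groups (x axes). In Hcn2 the Kdm7a-shRNA mice lie above the Ctrl mice of the same treatment, and in Cacna1i and Cacna2d1 the Kdm7a-shRNA + Saline mice lie below all Ctrl mice.

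None of the 5 tested sodium channel alpha genes was called. Scn8a and Scn2a, which encode the main sodium pores of cortical pyramidal neurons, had the most reads among the alpha genes. Scn8a was at 154 ± 16.2 (SD, n = 3) in Ctrl + Saline and 122 ± 19.3 (SD, n = 5) in Kdm7a-shRNA + Saline, and at 171 ± 6.96 (SD, n = 4) in Ctrl + Morphine and 132 ± 31.4 (SD, n = 4) in Kdm7a-shRNA + Morphine. Its log2 fold changes of -0.34 and -0.38 missed the adjusted threshold in each treatment, and the averaged value of -0.36 passed it (adjusted p = 0.0178) without reaching a fold change of 1.5. Scn2a was at 93.5 ± 11.2, 84.0 ± 17.96, 67.7 ± 22.9 and 85.3 ± 26.4 (SD) in Ctrl + Saline and Ctrl + Morphine mice and then in the knockdown mice of the same treatments. Its groups overlapped, with log2 fold changes of -0.47 under saline and 0.02 under morphine. The tested alpha genes together ranged from -0.47 to 0.60 under saline and from -0.46 to 0.24 under morphine.

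Among the HCN genes, Hcn2 rose and Hcn3 was not called. Hcn2 (ENSMUSG00000020331, chr10:79716634-79736108, plus strand), whose GC-rich promoter is printed above, encodes a channel strongly facilitated by cyclic AMP. Its reads were few, 10 to 82 in each library. It was at 3.70, 2.34 and 1.33 in Ctrl + Saline and at 9.08, 8.53, 9.72, 6.30 and 4.52 in Kdm7a-shRNA + Saline. In the morphine groups it was at 3.69, 3.52, 3.29 and 3.85 in Ctrl and at 4.29, 4.44, 6.10 and 6.71 in Kdm7a-shRNA mice. The groups did not overlap under either treatment. On the log2 scale the change was 1.63 (SE 0.306, adjusted p = 0.00205) under saline, 0.59 (SE 0.277, adjusted p = 0.192) under morphine and 1.11 (SE 0.206, adjusted p = 0.000796) averaged. The difference between the saline and morphine effects was -1.04 with an adjusted p of 0.347, so the effects were not shown to differ. Hcn3, at 9 to 26 counts per mouse, had estimates of -0.05 and 0.02.

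Of the L-type genes, Cacna1c fell in both treatments. Cacna1c (ENSMUSG00000051331, chr6:118587240-119196418, minus strand) encodes the main L-type pore of brain, which couples calcium entry to transcription. It was at 18.4, 27.3 and 19.2 in Ctrl + Saline and at 13.6, 12.4, 12.3, 19.9 and 14.0 in Kdm7a-shRNA + Saline, with replicate 4 inside the Ctrl range. It was at 23.7, 19.6, 20.6 and 22.8 in Ctrl + Morphine and at 9.81, 10.6, 8.25 and 15.3 in Kdm7a-shRNA + Morphine, all below the lowest Ctrl mouse. The log2 fold change was -0.99 (SE 0.199, adjusted p = 0.00754) under morphine and -0.79 (SE 0.140, adjusted p = 0.000597) averaged, and both calls held in each alternative and with each mouse left out. The saline value of -0.59 (SE 0.199, adjusted p = 0.0450) stood close to the threshold. It was lost without the count filter (adjusted p = 0.0531), in a fit of the compared groups alone (adjusted p = 0.0563), with an offset for transcript length (-0.37, adjusted p = 0.135), and in 11 of the 16 fits that leave out a mouse. It was kept without Ctrl + Saline replicate 1, Ctrl + Morphine replicate 2, Kdm7a-shRNA + Saline replicate 4 and Kdm7a-shRNA + Morphine replicates 3 and 4. The fit without Ctrl + Saline replicate 2 moved it most, to -0.37 (adjusted p = 0.280), and in the other 10 it was -0.69 to -0.54 (adjusted p = 0.0523 to 0.0939). Cacna1d, the L-type pore that opens at more negative potentials, was at 26.0 ± 0.669 (SD, n = 3) in Ctrl + Saline and 17.6 ± 2.89 (SD, n = 5) in Kdm7a-shRNA + Saline without overlap. Its log2 fold change of -0.57 (adjusted p = 0.0214) fell short of the fold change of 1.5. Cacna1f and Cacna1s, the L-type pores of retina and skeletal muscle, were at 0 to 30 and 0 to 52 counts, and their estimates had standard errors too wide for a statement.

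Among the Cav2 genes, Cacna1e fell under saline and Cacna1b under morphine. Cacna1e (ENSMUSG00000004110, chr1:154390731-154884501, minus strand) encodes the R-type pore. It was at 52.2, 63.0 and 49.5 in Ctrl + Saline and at 36.4, 24.1, 23.8, 47.7 and 30.4 in Kdm7a-shRNA + Saline, so that the groups did not overlap. This was a log2 fold change of -0.76 (SE 0.215, adjusted p = 0.0198), and under morphine -0.25 (adjusted p = 0.495). The saline call was lost without Ctrl + Saline replicate 2 (-0.64, adjusted p = 0.0992) and with the offset for transcript length (-0.52, adjusted p = 0.0632). Cacna1b (ENSMUSG00000004113, chr2:24603887-24763152, minus strand) encodes the N-type pore, which triggers transmitter release. It was at 25.8, 29.2, 19.2 and 22.9 in Ctrl + Morphine and at 17.6, 10.8, 13.6 and 15.3 in Kdm7a-shRNA + Morphine, again without overlap. The log2 fold change was -0.77 (SE 0.189, adjusted p = 0.0189) under morphine and -0.36 (adjusted p = 0.209) under saline. The morphine call was lost without Kdm7a-shRNA + Morphine replicate 2 (-0.65, adjusted p = 0.0511) or 3 (-0.74, adjusted p = 0.0590). Cacna1a, the P/Q-type pore, was not called, with 0.30 under saline and -0.37 under morphine.

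The T-type genes, whose channels open near rest and support burst firing, gave a call in each treatment. Cacna1i (ENSMUSG00000022416, chr15:80287238-80398279, plus strand) was at 14.4, 15.7 and 15.2 in Ctrl + Saline and at 9.996, 9.68, 8.89, 10.5 and 5.53 in Kdm7a-shRNA + Saline, without overlap and with a narrow spread in Ctrl. It fell by 0.77 on the log2 scale (SE 0.183, adjusted p = 0.00812). Under morphine Ctrl mice were at 14.3 to 16.3 and Kdm7a-shRNA mice at 10.6 to 16.5, overlapping, and the estimate was -0.21 (adjusted p = 0.494). Cacna1h (ENSMUSG00000024112, chr17:25374285-25433783, minus strand) was at 19.0, 8.64, 12.5 and 18.1 in Ctrl + Morphine and at 3.98, 5.88, 3.69 and 7.11 in Kdm7a-shRNA + Morphine. No knockdown mouse reached the lowest Ctrl mouse, and the log2 difference of -1.50 (SE 0.266, adjusted p = 0.00418) was the lowest among the called values of the channel genes. Under saline Cacna1h was at 7.22 to 9.78 in Ctrl and 4.98 to 8.77 in Kdm7a-shRNA mice, with an estimate of -0.30 (adjusted p = 0.469). Both the saline call of Cacna1i and the morphine call of Cacna1h held in each alternative and with each mouse left out. Cacna1h shares 158 exonic bases with Tpsg1 on the opposite strand, and it is not stated whether the authors' counting used strand. Cacna1g, the T-type gene with the most reads, was at 41.4 ± 8.98 (SD, n = 3) in Ctrl + Saline, 59.2 ± 7.62 (SD, n = 4) in Ctrl + Morphine, 43.6 ± 14.6 (SD, n = 5) in Kdm7a-shRNA + Saline and 47.3 ± 6.99 (SD, n = 4) in Kdm7a-shRNA + Morphine, and was not called.

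The alpha2delta genes encode the largely extracellular subunit that raises the surface level of Cav1 and Cav2 pores and, for Cacna2d1 and Cacna2d2, binds gabapentin. Cacna2d1 (ENSMUSG00000040118, chr5:15934691-16374511, plus strand) was at 50.9, 58.2 and 55.0 in Ctrl + Saline and at 24.1, 30.9, 27.1, 36.0 and 23.6 in Kdm7a-shRNA + Saline. The groups were well apart, and the log2 fold change of -0.95 (SE 0.215, adjusted p = 0.00627) held in each alternative and with each mouse left out. Under morphine the Ctrl mice were at 42.6, 61.7, 44.3 and 44.8 and the Kdm7a-shRNA mice at 49.8, 41.1, 27.8 and 68.2, with full overlap, and the estimate was -0.05 (adjusted p = 0.901). The difference between these effects was 0.89 with an adjusted p of 0.261. Cacna2d2 (ENSMUSG00000010066, chr9:107399612-107529343, plus strand) was called in the averaged comparison with -0.60 (SE 0.150, adjusted p = 0.00641). It was at 7.27, 12.3 and 9.01 in Ctrl + Saline and at 6.78, 7.49, 6.28, 5.29 and 6.73 in Kdm7a-shRNA + Saline, with 1 knockdown mouse above the lowest Ctrl mouse. In Ctrl + Morphine it was at 9.78, 10.9, 11.8 and 15.8, above the 9.50, 8.99, 6.79 and 5.64 of Kdm7a-shRNA + Morphine. The averaged call was lost in 5 of the 16 fits that leave out a mouse, each time because the fold change dropped under 1.5 with an adjusted p still under 0.05: without Ctrl + Saline replicate 2 (-0.48), Ctrl + Morphine replicate 4 (-0.52), Kdm7a-shRNA + Saline replicate 4 (-0.57) and Kdm7a-shRNA + Morphine replicate 3 (-0.57) or 4 (-0.54). Cacna2d2 shares 82 exonic bases with Gm17141 on the opposite strand, with the same doubt about strand as for Cacna1h. Cacna2d3, at 62.1 ± 2.96 (SD, n = 3) in Ctrl + Saline and 52.8 ± 14.8 (SD, n = 5) in Kdm7a-shRNA + Saline, and Cacna2d4, at 1 to 20 counts, were not called.

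The cytoplasmic beta genes and the gamma genes gave no call. Cacnb3 and Cacnb4, the beta genes with the most reads, were at 118 ± 19.5 and 106 ± 18.4 (SD, n = 3) in Ctrl + Saline and at 154.5 ± 35.1 and 107 ± 16.1 (SD, n = 5) in Kdm7a-shRNA + Saline. The 4 beta genes ranged from -0.59 to 0.38 on the log2 scale under saline and from -0.19 to 0.03 under morphine. Among the TARP genes, Cacng3 was at 33.6 ± 6.40 (SD, n = 3) in Ctrl + Saline and 26.7 ± 6.41 (SD, n = 5) in Kdm7a-shRNA + Saline, and Cacng7 was at 27.95 ± 10.8 and 30.1 ± 2.39. The 6 tested gamma genes ranged from -0.33 to 0.22 under saline and from -0.69 to 0.28 under morphine. A p that misses the threshold does not show that these genes were unchanged.

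The 7 channel genes under the count filter are best known from other tissues or from glia. Scn4a of skeletal muscle had 0 to 1 counts per mouse, Scn10a and Scn11a of sensory neurons 0 to 6 and 0 to 1, and Scn7a, which encodes a sodium-sensing channel, 0 to 8. Cacng1, the gamma subunit of skeletal muscle, and its relative Cacng6 had 0 to 1 and 0 to 8. Hcn4, the pacemaker gene of the sinoatrial node, had 1 to 9. At these counts no difference between groups was detectable.

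The saline and the morphine comparison share no mouse. Both come from 1 fit with a shared spread, scaling and count filter, so their calls are not fully separate. Of the 34 tested channel genes, 24 (70.6%) had the same sign in both, against 65.3% of known genes and 67.9% of all tested genes. The 7 genes called under saline all had the same sign under morphine, though Cacna2d1 was near 0 there (-0.05). The 3 called under morphine all had the same sign under saline. The share with the same sign among all called genes was not counted, so this agreement is not shown to be particular to channel genes. Cacna1c was called in both. The interaction, which tests whether the knockdown effect differed between morphine and saline, called 0 channel genes in edgeR and 0 in DESeq2, with a smallest adjusted p of 0.225 (Cacna1h, -1.21). The background of that comparison was 0.0850% of all tested genes. At an unadjusted p under 0.05 there were 6 channel genes (17.6%), against 10.7% of all tested genes. Calls made under 1 treatment alone were therefore not shown to be particular to it.

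No channel gene was called between morphine and saline mice of the same virus. Between Ctrl + Morphine and Ctrl + Saline, 0 of 34 channel genes were called in edgeR and 0 in DESeq2, against 0% of all tested genes in edgeR, and 3 (8.82%) had an unadjusted p under 0.05, against 11.7% of all tested genes. These 3, named after their values were seen, were Cacna1h (0.84, adjusted p = 0.243), Cacna1b (0.49, adjusted p = 0.346) and Cacna1g (0.52, adjusted p = 0.370), pores of T-type and N-type channels, and all had higher estimates with morphine. Cacna1b was at 16.4 to 18.2 in the Ctrl + Saline mice and at 19.2 to 29.2 in the Ctrl + Morphine mice. Between Kdm7a-shRNA + Morphine and Kdm7a-shRNA + Saline, again 0 of 34 were called by either tool, against 0.00531% of all tested genes in edgeR. The 3 genes (8.82%, against 7.02% of all tested genes) at an unadjusted p under 0.05 were Cacna2d1 (0.72, adjusted p = 0.499), Cacna1i (0.57, adjusted p = 0.561) and Cacng5 (-0.97, adjusted p = 0.643). The median log2 fold change of the channel genes was 0.10 and 0.06 in these comparisons, and that of known genes 0.04 and 0.00.

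The knockdown change of known genes varied with transcript length. Apart from Scn3b, the channel genes called lower have longer annotated transcripts than those called higher. The genes that rose have annotated transcripts of 3195 bases (Hcn2) and 4982 bases (Scn4b), taking the longest of each gene. Those that fell have 4150 (Scn3b), 5807 (Cacna2d2), 7436 (Cacna2d1), 8230 (Cacna1h), 9736 (Cacna1b), 9781 (Cacna1i), 13162 (Cacna1c) and 14921 bases (Cacna1e). Over known genes the median log2 fold change under saline declined from 0.22 in the 2828 genes under 2 kb to 0.15, 0.04 and -0.03 in the next classes and to -0.15 in the 912 genes of 8 kb or longer. The morphine medians of the shortest and longest class were 0.10 and -0.07. The 13 tested channel genes of 8 kb or longer had a median of -0.36 under saline and -0.30 under morphine, below their length class. Of these 13, 3 were called lower in each treatment, against 8.55% of known genes of that length under saline and 2.63% under morphine. Shorter channel genes did not all lie below their class. The 4 of 6 to 8 kb had medians of -0.32 and 0.57, where known genes had -0.03 and -0.02, and they include Cacna1f and Cacna1s with their few counts. The 8 of 4 to 6 kb had 0.03 and 0.01 against 0.04 and 0.01, and the 8 of 2 to 4 kb 0.05 and -0.12 against 0.15 and 0.06. A single channel gene was under 2 kb, with 0.19 and 0.20 against 0.22 and 0.10. With a smooth offset for transcript length in each mouse, 5 channel genes were called under saline (all but Cacna1c and Cacna1e of the 7), and the 3 calls under morphine and the 6 averaged calls held for the same genes. Cacna1h stayed at -1.45 (adjusted p = 0.00452) under morphine. Scn3b, of middling length, was at -0.99 (adjusted p = 0.0246) under saline with that offset. What made long and short transcripts differ between the virus groups was not tested.

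**Figure D3:**
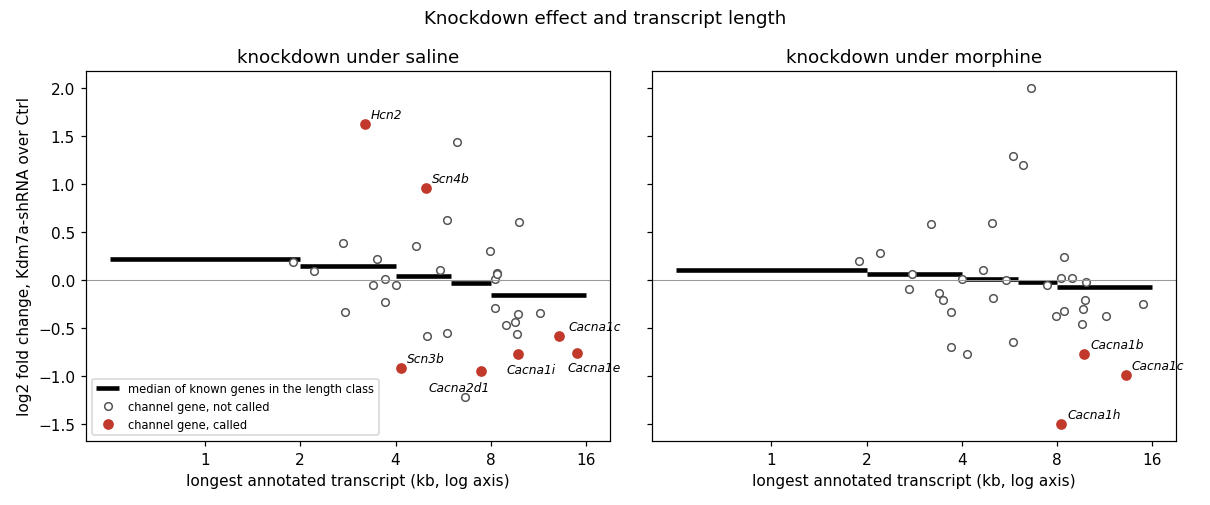
Log2 fold change of Kdm7a-shRNA over Ctrl (y axis) of the 34 tested channel genes against the length of the longest annotated transcript (x axis, log scale, kb), under saline (left) and morphine (right). Red points are called genes, and black lines are the medians of known genes in 5 length classes, which decline from 0.22 to -0.15 under saline.

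Within single mice, Scn3b was lowest in replicate 3 and highest in replicate 4 of each knockdown group, an order noticed after the values were seen and given without a test. It was at 32.7 and 45.8 in Kdm7a-shRNA + Saline replicate 3 and Kdm7a-shRNA + Morphine replicate 3, and at 108 and 107.5 in the replicates 4 of the same groups. Microglial markers ran the other way, highest in replicate 3 and lowest in replicate 4 of each knockdown group. The summed CPM of 5 such markers was 273 to 580.2 in Ctrl and 482 to 2046 in Kdm7a-shRNA mice, with 2046 and 1866 in the replicates 3 and 709 and 482 in the replicates 4. The contrast of long against short transcripts, the median log2 deviation of 898 known genes of 8 kb or longer minus that of 2826 genes under 2 kb, without channel genes, was 0.07 to 0.32 in Ctrl and -0.24 to 0.07 in Kdm7a-shRNA mice. It was lowest in Kdm7a-shRNA + Saline replicate 2 (-0.24) and highest among knockdown mice in Kdm7a-shRNA + Morphine replicate 4 (0.07). The part of microglial RNA and of transcript length in the channel results was not tested beyond the offset.

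**Figure D4:**
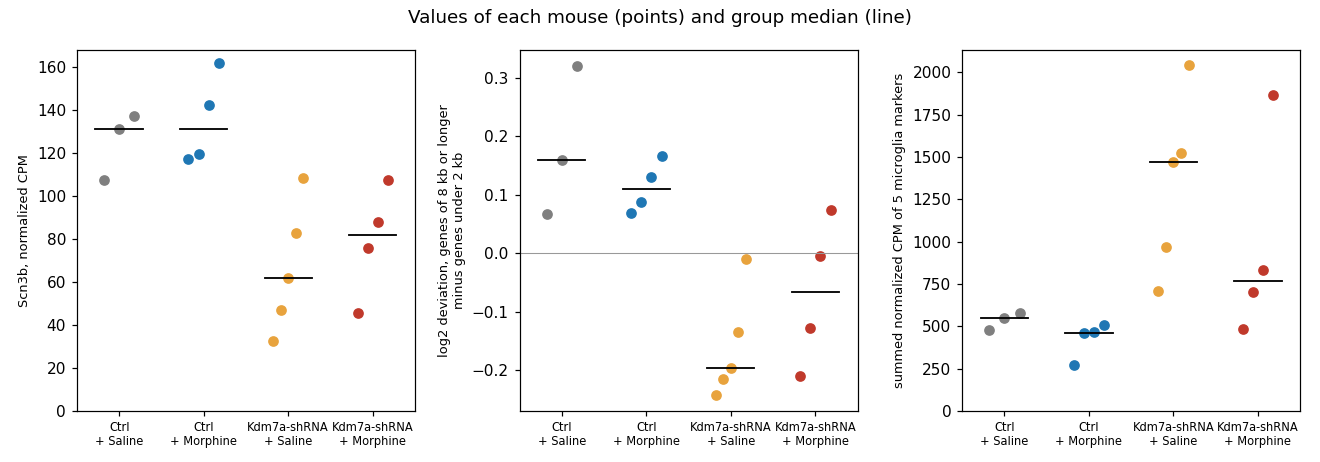
Values of each mouse (points, sorted by value within the group) and group medians (lines) for the normalized CPM of Scn3b (left), the log2 deviation of long minus short transcripts (middle) and the summed normalized CPM of 5 microglial markers (right), in the 4 groups on the x axis. Scn3b was at 32.7 to 108 in the 9 Kdm7a-shRNA mice and at 108 to 162 in the 7 Ctrl mice.

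Markers of the cell types that carry these channels also differed. Pvalb, the marker of fast-spiking interneurons, rose by a log2 fold change of 0.68 (adjusted p = 0.0174) under saline and 0.81 (adjusted p = 0.0118) under morphine. It was at 56.5 ± 3.61 (SD, n = 3) and 90.8 ± 18 (SD, n = 5) in Ctrl + Saline and Kdm7a-shRNA + Saline. Sst, the marker of another interneuron class, fell by 1.14 (adjusted p = 0.000609) and 0.99 (adjusted p = 0.00412). Of the 6 interneuron markers, 2 were called higher and 3 lower under saline, and 1 and 1 under morphine, and their summed CPM was 488 to 549 in Ctrl + Saline, 517 to 543 in Ctrl + Morphine, 329 to 439 in Kdm7a-shRNA + Saline and 361 to 481 in Kdm7a-shRNA + Morphine. None of the 4 general neuronal and 4 excitatory markers was called, with median log2 fold changes of -0.21 and -0.58 under saline and -0.04 and -0.34 under morphine. Microglial markers were called higher in 4 of 5 under saline and 2 of 5 under morphine, astrocyte markers in 2 of 5 and 0 of 5, endothelial markers in 3 of 3 and 1 of 3, and oligodendrocyte markers in 0 of 5 in both. Layer markers, markers of oligodendrocyte precursors and mural markers gave 0 calls of 6, 3 and 4 in either treatment. The 4 markers of striatal projection neurons also gave 0 calls, with median log2 fold changes of 0.55 under saline and 0.35 under morphine. The part of these shifts in the channel values was not tested.

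Few of the genes whose products anchor or regulate these channels were called. Of 39 listed partners, which include ankyrins, FGF homologous factors, the NALCN complex and active-zone proteins, 38 were tested. Under saline 0 were called higher, against 7.43% of all tested genes and 9.00% of known genes. In the same comparison 2 were called lower (5.26%), against 9.31% of all tested genes and 2.98% of known genes. These were Unc79, a subunit of the NALCN sodium leak channel (-0.77, adjusted p = 0.0253), and Rims2, an active-zone protein that binds calcium channel beta subunits (-0.69, adjusted p = 0.0432). Under morphine 1 was called, Nrcam, an adhesion molecule of the axon initial segment and node (-0.64, adjusted p = 0.00983), and in the averaged comparison Unc79 (-0.67, adjusted p = 0.00506). Each is 2.63% of the partners. Under morphine 4.83% of all tested genes and 1.27% of known genes were called lower, and in the averaged comparison 9.93% and 2.12%. The medians of the partners were -0.09, -0.10 and -0.05 in the 3 knockdown comparisons. In the comparisons of morphine with saline and in the interaction, no partner was called in edgeR.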

How the data were processed

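RNA of the mPFC of 16 mice, 1 library each, was sequenced by the authors as Nanopore cDNA (SQK-PCS109). Per the paper's methods they kept reads of at least 500 bases and quality 7, removed rRNA, selected full-length non-chimeric reads and mapped these to mm10 with minimap2, and the submitters' processing notes name edgeR 3.8.6. The deposited counts are reads that the authors assigned per gene, without normalization. The deposited CPM columns are those counts divided by the authors' column totals, and were used for checks only. Counts of the whole table were fitted in R 4.3.3 with edgeR 4.0.16 (filterByExpr on the 4 groups, TMM, quasi-likelihood test, Benjamini-Hochberg adjustment over 18826 genes, 16 mice in 1 fit). Calls needed an adjusted p under 0.05 and a change of 1.5-fold or more, the paper's limits. SE is the absolute log2 fold change over the square root of F. The edgeR steps alone were also run on simulated independent counts, which lack the differences by transcript length and cell markers seen here. DESeq2, the length offset and the block fits were not simulated. Replicates are different mice. Same-numbered mice of Ctrl + Saline and Ctrl + Morphine deviated together (correlations of 0.11 to 0.207 in 3 pairs), so that comparison was also fitted as pairs. The labels name no shared litter or day. In the other comparisons not all same-numbered mice deviated together, with correlations of -0.0953 to 0.395 in 4 pairs of the Kdm7a-shRNA groups. There the replicate number was used as a block only in an alternative fit. Counts of mice of 1 group differed by a chi-square of 8.33 to 51.2 per degree of freedom, so no library was a copy of another of its group. Mice of different groups were not compared in this way. Reads were amplified by PCR, and depth covers counting error only. The genes and lists were chosen with earlier results of these data known. Named are the called genes, those with the most reads per family and those under the filter. Of the genes that the rule and the partner list name, 3 and 1 are not reported here, and counts leave them out. Transcript lengths and positions are from GENCODE vM21, promoters from RefSeq (both GRCm38). Alternatives were RLE factors, library size only, no filter, at least 10 counts in every mouse, the compared groups alone, DESeq2 1.42.0, the replicate number as a block, adjusted p alone, known genes only, a transcript length offset and each mouse left out. The transcript table and the authors' comparisons were not used.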

Additional observations from a re-analysis of the deposited data

Results flagged for a closer look

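The value of 1 mouse stood far from the rest of its group in 5 of 102 tests of a channel gene in a group of 4 or 5 mice (Dixon's test at its 95% limit), where chance gives about 1 in 20. Cacna2d1 was at 61.7 normalized CPM in Ctrl + Morphine replicate 2 against 42.6 to 44.8 in the others, and Cacna1f was at 1.17 in the same mouse against 0 in the others. Cacna1c was at 19.9 in Kdm7a-shRNA + Saline replicate 4 against 12.3 to 14.0, and Cacng3 was at 37.9 in that mouse against 21.8 to 25.5. Cacnb2 was at 5.29 in Kdm7a-shRNA + Saline replicate 1 against 2.61 to 3.04. Without Kdm7a-shRNA + Saline replicate 4, 9 channel genes were called under saline in place of 7.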

How the results depend on the processing

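Of the 16 called values of channel genes, 10 held under every alternative and with each mouse left out, 6 were lost when at least 1 mouse was left out and 2 of these also under another setting, and none changed sign. The number of channel genes called was 5 to 9 under saline and 3 or 4 under morphine over the settings that keep every mouse. The averaged comparison called 6 in the reported fit, 10 with library size only and 12 with the adjusted p alone. Library size only lowered the median of all genes by 0.13 (saline), 0.11 (morphine) and 0.12 (averaged) on the log2 scale, and turned the split of all calls under saline from 1398 higher and 1753 lower to 967 and 2342, and under morphine from 538 and 910 to 394 and 1246. With each mouse left out, 4 to 9 channel genes were called under saline, 2 to 5 under morphine and 5 to 8 averaged. There were 4 under saline without Ctrl + Saline replicate 2, Ctrl + Saline replicate 3 or Kdm7a-shRNA + Saline replicate 5. Under morphine there were 2 (Cacna1c and Cacna1h) without Kdm7a-shRNA + Morphine replicate 2 or 3 and 5 without Kdm7a-shRNA + Morphine replicate 4. The cause of these differences was not tested. The comparisons of morphine with saline and the interaction called 0 channel genes in every setting, leave-outs included. The median channel change under saline moved from -0.05 to -0.28 with at least 10 counts in every mouse and to -0.23 without Ctrl + Saline replicate 3. Same-numbered mice deviated together in all 3 pairs of the Ctrl groups (0.11 to 0.207), but over 0.1 in only 2 of 4 pairs of the Kdm7a-shRNA groups (-0.0953 to 0.395), 1 of 3 pairs of the saline groups and 0 of 4 of the morphine groups. For Ctrl + Morphine against Ctrl + Saline, 0 channel genes were called with the replicate block over all groups and 0 (3 over all genes) with the block in these groups alone, a fit added after seeing the data. In the knockdown comparisons, with the replicate block 8 channel genes were called under saline (the reported 7 and Cacna1d), 4 under morphine (the reported 3 and Scn3b) and 8 averaged (the reported 6, Cacna1b and Cacna2d4). Calls over all genes were 3151 under saline, but 1852 with at least 10 counts and 1378 over known genes only, 1448 under morphine, but 697, 424 and, in a fit of the compared groups alone, 685, and 3316 averaged, but 1525, 1409 and, with the adjusted p alone, 5190. For morphine under the control virus, morphine under knockdown and the interaction, DESeq2 called 158, 19 and 203 genes against 0, 1 and 16 in edgeR, and the interaction gave 34 with no filter, 6 with the replicate block and 4 with the length offset. The compared groups alone were not fitted for the averaged comparison and the interaction, which use all 4 groups. Depth limits the genes with few reads, such as Hcn2, Hcn3, Scn9a, Cacna1f, Cacna1s and Cacna2d4.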
